A study of Mus musculus with 6 samples.

Results

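The Sprouty and Spred genes encode inhibitors that act inside the cell on signalling from receptor tyrosine kinases to Ras and ERK, the pathway in which HRAS acts. Whether ERK activity was raised in the sorted MUT cells was not measured here. The 7 mouse genes *Spry1*, *Spry2*, *Spry3*, *Spry4*, *Spred1*, *Spred2* and *Spred3* were chosen by name, not by a cut on their measured levels. Earlier results of these data were known when the genes were chosen. Of these, 6 are among the 53657 gene names in the count files. *Spry3* has no row, and its level was not analysed here. The files list genes on the chromosomes and tdTomato, and the GENCODE vM21 annotation places *Spry3* on an unplaced scaffold.

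Sprouty proteins are known as feedback inhibitors, because ERK signalling switches on their transcription and they in turn dampen the receptor signal. Spred proteins are membrane-bound relatives, and Spred1 is known to bring neurofibromin, the product of *Nf1*, to the membrane, where it turns Ras off. In undifferentiated spermatogonia (A_undiff), the germ line cells that include the stem cells, GDNF and FGF from the niche signal through this pathway to maintain self-renewal.

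RNA came from 3 WT and 3 MUT adult mice, each mouse a separate library. All 6 mice carried *Gfra1-creERT2* and a tdTomato reporter, and all received tamoxifen in 2 courses, 3 months before the cells were isolated. MUT mice also had 1 floxed *Hras* allele that recombination converts to *Hras* G12V under the endogenous promoter, and WT mice were littermates without that allele, on a mixed background. Cells were sorted as MCAM-bright and tdTomato+, so the library of a MUT mouse may hold cells in which the reporter but not *Hras* had recombined. The comparison asks whether A_undiff with one hyperactive *Hras* allele transcribed these feedback inhibitors at another level than WT cells did.

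The files hold raw fragment counts per gene, between 22729292 and 23550433 per library, at which 3 counts correspond to 0.127 to 0.132 CPM (a gene's counts scaled to a common library total, with TMM factors that make libraries comparable). Values of a genotype are listed by replicate number. WT mice had 1300, 1407 and 1542 counts of *Hras*, and MUT mice 1600, 1594 and 1426. These counts sum both alleles, so they do not check the genotype labels. The study called the mutant base in the reads of its MUT mice at close to an equal share with the reference base. From this it proposes that most of the isolated A_undiff carried the mutation. That call was not repeated here. All 12 markers of undifferentiated spermatogonia were detected, with summed levels of 2354 to 3045 CPM. Markers of other cell types were detected as well, and no marker of any list was at 0 in all 6 libraries. The summed levels were 396 to 553 CPM for 6 spermatocyte genes, 650 to 1606 CPM for 6 spermatid genes, 550 to 1049 CPM for 5 macrophage genes and 25.2 to 132 CPM for 5 B and plasma cell genes. They were 44.5 to 59.3 CPM for 6 endothelial genes, 25.1 to 36.7 CPM for 6 Sertoli cell genes, 12.9 to 67.3 CPM for 6 Leydig cell genes and 7.91 to 12.8 CPM for 5 peritubular myoid genes.

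The members are scattered over the genome (GRCm38). *Spry1* lies on chromosome 3 from 37639947 to 37644598 (plus strand) and *Spry2* on chromosome 14 from 105891947 to 105896819 (minus strand). *Spred1* lies on chromosome 2 from 117121374 to 117182279 (plus strand), *Spred2* on chromosome 11 from 19924375 to 20024026 (plus strand) and *Spred3* on chromosome 7 from 29158829 to 29170411 (minus strand). Each of the 3 Sprouty genes is coded within 1 exon, while the coding parts of *Spred1*, *Spred2* and *Spred3* are split over several. Their coding sequences are 939 bases long in *Spry1*, 945 in *Spry2*, 900 in *Spry4*, 1332 in *Spred1*, 1311 in *Spred2* and 1224 in *Spred3*.

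Members of a family can exchange reads where their sequences coincide, so the coding sequences were compared. For the pairs with the longest shared runs, the 60 coding bases around that run are shown here, compared without gaps. They show how the genes differ around the run, and no search was made for the window of highest identity. Capitals mark bases that are the same in both genes of a pair. *Spry1* (chr3:37643187-37643246, exon 3) and *Spry2* (chr14:105893105-105893164, minus strand, exon 2) shared 38 of the 60 bases. *Spred1* (chr2:117153002-117153061, exon 2) and *Spred2* (chr11:19998133-19998192, exon 2) shared 45 of the 60 bases.
Spry1: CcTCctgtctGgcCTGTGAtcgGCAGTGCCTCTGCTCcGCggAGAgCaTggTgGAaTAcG
Spry2: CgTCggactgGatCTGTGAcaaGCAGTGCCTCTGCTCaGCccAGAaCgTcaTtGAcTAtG
Spred1: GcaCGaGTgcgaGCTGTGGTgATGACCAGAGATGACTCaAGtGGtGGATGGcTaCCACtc
Spred2: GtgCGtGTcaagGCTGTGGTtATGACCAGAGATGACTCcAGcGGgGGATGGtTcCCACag

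The longest unbroken run shared in coding sequence was 15 bases between *Spry1* and *Spry2* and 17 bases between *Spred1* and *Spred2*. Over the longest transcripts of all 15 pairs of members, the longest shared run was between 11 and 17 bases. No pair shared a run of 50 bases, the length of a read, so no read that matches 1 of these transcripts without mismatch could match another.

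Overlap with other genes matters more for the counting, which disregarded strand and left out fragments on 2 genes. *RP23-382L1.6*, on the opposite strand, covers 710 of the 2906 exon bases of *Spry1* (24.4%), and fragments from that part were not counted for either gene. *RP23-382L1.6* itself had between 0 and 5 counts per library. *Ggn*, a gene of later germ cells on the opposite strand, covers 202 of the 6218 exon bases of *Spred3* (3.25%). The exons of *Spry2*, *Spry4*, *Spred1* and *Spred2* are free of other genes.

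Divided by exon length, 5 of the 6 genes were above the median gene in these cells, and *Spred3* was far below it. The mean over 6 mice was 15.7 CPM per kb for *Spred2*, 13.0 for *Spred1*, 9.55 for *Spry2*, 8.96 for *Spry4*, 7.27 for *Spry1* and 0.792 for *Spred3*, where the median of all 19656 tested genes was 3.90 CPM per kb. *Spred2* was at the 78.9th percentile of the tested genes by this measure and *Spred3* at the 22.4th.

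Neighbours in this order were not all apart. *Spred2* was above *Spred1* in 6 of 6 mice, but their ranges over the mice overlapped (13.3 to 17.6 and 12.3 to 13.9 CPM per kb). The lowest *Spred1* value was above the highest value of any Sprouty gene. *Spry2* (7.62 to 11.6 CPM per kb) was above *Spry4* (6.997 to 10.6 CPM per kb) in 4 of 6 mice, so their order was not stable from mouse to mouse. *Spry4* was above *Spry1* (6.24 to 8.42 CPM per kb) in 6 of 6 mice, with overlapping ranges. *Spred3* (0.656 to 1.02 CPM per kb) was 9.19-fold below *Spry1*, with every *Spred3* value below every *Spry1* value. The place of *Spry1* depends on the length used, since fragments on its overlapped bases were not counted. Over the 2196 exon bases free of the antisense gene its mean was 9.63 CPM per kb (8.26 to 11.1), above *Spry4* in 4 of 6 mice and above *Spry2* in 3 of 6. The 3 Sprouty genes therefore have no firm order among themselves.

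**Figure D1:**
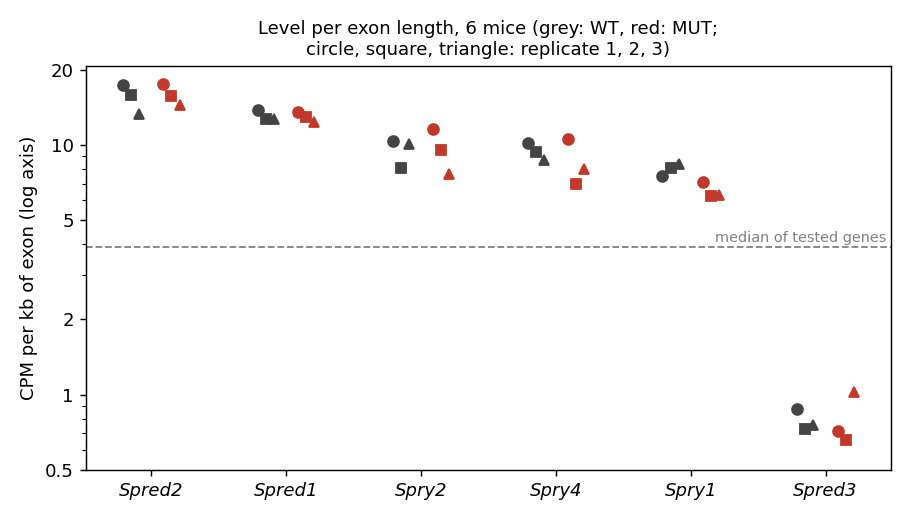
Level of each gene in CPM per kb of exon (log axis) in 3 WT (grey) and 3 MUT (red) mice, genes ordered by mean, with the median of all tested genes dashed. The Spred2 and Spred1 points sit highest, the 3 Sprouty genes between 6.24 and 11.6 CPM per kb, and Spred3 below the dashed line in every mouse.

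Between WT and MUT, none of the 6 genes passed an FDR of 0.1 in edgeR's quasi-likelihood test, fitted on all 19656 genes that passed its expression filter. Over all tested genes 0.0102% were called. DESeq2 also called none of the 6 (0.0241% of the genes it adjusted), nor did either tool when replicate numbers were blocked (0.0661% for edgeR and 0.323% for DESeq2). At an unadjusted p under 0.05 there was 1 member in edgeR, *Spry1*, while 2.78% of all tested genes reached that p. There was also 1 member in DESeq2, where 438 of 37285 genes reached it, and 1 in limma voom, where 582 of 19656 did. With the block in edgeR the member was again *Spry1* (unadjusted p = 0.0237), beside 6.6% of all tested genes. In the blocked DESeq2 fit no member reached 0.05 (*Spry1*, unadjusted p = 0.0663), while 611 of 37285 genes did. The members' log2 fold changes were positive in 3 and negative in 3, with a median of -0.0028, where the median of all tested genes was 0.0066. The adjusted p was 0.998 for each of the 6 genes in edgeR, with Benjamini-Hochberg adjustment. With 3 mice against 3, the smallest two-sided p of an exact permutation test is 0.1.

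*Spry1* was the member whose genotypes did not overlap, which 7.69% of all tested genes also showed. It had 498, 548 and 579 counts in the WT mice and 473, 418 and 430 in the MUT mice. The normalized levels were 21.8, 23.4 and 24.5 CPM in WT and 20.7, 18.1 and 18.4 CPM in MUT. Every MUT mouse was below every WT mouse, and MUT replicate 1 lay closest to the WT mice. The mean level was 23.2 ± 1.36 CPM for WT and 19.1 ± 1.40 CPM for MUT (SD, n = 3 each). An exact permutation test (two-sided) gave p = 0.1, the smallest possible. In edgeR the difference was -0.28 as a log2 fold change (standard error 0.10, 95% confidence interval -0.51 to -0.055, unadjusted p = 0.0210 and adjusted p = 0.998 from edgeR), or 0.821-fold.

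*Spry1* encodes a Sprouty that is known to restrain signalling by GDNF through the receptor Ret in the developing kidney. In bulk RNA, fewer cells with *Spry1* and less *Spry1* RNA per cell cannot be told apart. Markers of B and plasma cells followed a similar order, with sums of 49.9, 96.7 and 132 CPM for WT mice and 31.2, 25.2 and 55.3 CPM for MUT mice. Of these 5 genes, 3 were at 1 CPM or more, and *Ms4a1*, which marks B cells, had a mean of 0.437 CPM. The macrophage sum was 617 to 1049 CPM in WT and 550 to 685 CPM in MUT. The spermatid sum was 1263, 948 and 1606 CPM for WT mice and 650.0, 684 and 1253 CPM for MUT mice. The gate for tdTomato+, MCAM-bright cells was meant to select A_undiff and not these cell types. Their part in the *Spry1* difference was not tested. As a share of the summed level per kb of the 6 members, *Spry1* took 12.5, 14.7 and 15.6% for WT mice and 11.6, 12.0 and 12.7% for MUT mice, and on that scale the genotypes overlapped.

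The promoter of *Spry1* is shown because its levels were the ones that separated the genotypes, and that of *Spred1* because its levels varied least. Both are the 250 bases before the RefSeq start (GRCm38.p6, plus strand), *Spry1* at chr3:37639697-37639946 and *Spred1* at chr2:117120821-117121070. Capitals mark CGGAAG on either strand, a core sequence that ETS factors, which ERK activates, are known to bind.
Spry1: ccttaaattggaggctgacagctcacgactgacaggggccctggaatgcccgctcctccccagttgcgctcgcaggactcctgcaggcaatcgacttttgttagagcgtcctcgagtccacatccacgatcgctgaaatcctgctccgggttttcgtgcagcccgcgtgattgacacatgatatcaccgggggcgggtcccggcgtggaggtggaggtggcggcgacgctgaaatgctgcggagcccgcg
Spred1: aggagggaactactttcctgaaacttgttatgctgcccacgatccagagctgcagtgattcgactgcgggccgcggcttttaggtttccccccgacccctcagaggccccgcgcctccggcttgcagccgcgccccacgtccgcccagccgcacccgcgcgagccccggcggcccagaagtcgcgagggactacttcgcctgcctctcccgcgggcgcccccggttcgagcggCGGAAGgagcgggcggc

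CGGAAG was found once in the *Spred1* window and not in that of *Spry1*, and 13.6% of 32851 RefSeq promoter windows of this length held it. RefSeq starts *Spred1* at 117121071, upstream of the start in the count files. The table held 5 of the 7 members, and of the other 3 windows only that of *Spred2* held the letters, once. The AP-1 sequence TGANTCA, where N is any base, was in none of the 5 windows and in 6.75% of all windows. A match or its absence describes these letters and not the binding of a factor.

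*Spry2* encodes a Sprouty known to bind the ubiquitin ligase Cbl. *Spry2* had 496, 394 and 498 counts in the WT mice and 554, 459 and 372 in the MUT mice. The normalized levels were 21.7, 16.8 and 21.0 CPM in WT and 24.2, 19.9 and 15.9 CPM in MUT. The highest and the lowest mouse were both MUT, and the genotypes overlapped throughout. The mean level was 19.9 ± 2.63 CPM for WT and 20.01 ± 4.16 CPM for MUT (SD, n = 3 each). By exact permutation (two-sided), p was 1. On the log2 scale MUT minus WT was 0.011 (standard error 0.17, 95% confidence interval -0.37 to 0.39).

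*Spry4*, which encodes the shortest of the 3 Sproutys measured, lies on chromosome 18 from 38586268 to 38601268 (minus strand). It was the Sprouty with the most counts, 1064, 1001 and 945 in the WT mice and 1111, 740 and 860 in the MUT mice. The normalized levels were 46.5, 42.8 and 39.9 CPM in WT and 48.6, 32.1 and 36.8 CPM in MUT. MUT replicate 1 was the highest of the 6 mice, and the other two MUT mice were the lowest. The mean level was 43.1 ± 3.29 CPM for WT and 39.1 ± 8.49 CPM for MUT (SD, n = 3 each). By exact permutation (two-sided), p was 0.5. In edgeR the log2 fold change was -0.14 (standard error 0.15, 95% confidence interval -0.47 to 0.19). It was -0.33 without MUT replicate 1 (unadjusted p = 0.0189, adjusted p = 0.9999 from edgeR) and -0.028 without MUT replicate 2, so the size of the difference rests on single mice.

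*Spred1*, the gene mutated in Legius syndrome, had the most counts of the family and the least variation, with a coefficient of variation of 4.42% over the 6 mice. That is below the median of 7.51% of genes with a mean of at least 10 CPM, a class not matched to *Spred1* in level. Genes with fewer counts carry a larger relative counting error. It had 2151, 2019 and 2037 counts in the WT mice and 2101, 2027 and 1956 in the MUT mice. The normalized levels were 94.0, 86.3 and 86.1 CPM in WT and 91.8, 87.9 and 83.6 CPM in MUT. The genotypes overlapped, and the mean level was 88.8 ± 4.51 CPM for WT and 87.8 ± 4.11 CPM for MUT (SD, n = 3 each). By exact permutation (two-sided), p was 0.7. For this gene the log2 fold change was -0.016 (standard error 0.069), and its 95% confidence interval of -0.17 to 0.14 was the narrowest of the family.

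*Spred2*, which encodes a close relative of Spred1, had 1837, 1713 and 1458 counts in the WT mice and 1861, 1676 and 1564 in the MUT mice. The normalized levels were 80.3, 73.2 and 61.6 CPM in WT and 81.3, 72.7 and 66.9 CPM in MUT. In both genotypes replicate 1 was highest and replicate 3 lowest. The mean level was 71.7 ± 9.42 CPM for WT and 73.6 ± 7.29 CPM for MUT (SD, n = 3 each). By exact permutation (two-sided), p was 0.8. The edgeR estimate on the log2 scale was 0.038 (standard error 0.11, 95% confidence interval -0.22 to 0.29).

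*Spred3*, the Spred known to lack a working Kit-binding domain, had 124, 106 and 111 counts in the WT mice and 102, 94 and 149 in the MUT mice. The normalized levels were 5.42, 4.53 and 4.69 CPM in WT and 4.46, 4.08 and 6.37 CPM in MUT. MUT replicate 3 was the highest mouse, and the other two MUT mice were the lowest. The mean level was 4.88 ± 0.474 CPM for WT and 4.97 ± 1.23 CPM for MUT (SD, n = 3 each). By exact permutation (two-sided), p was 1. The estimate on the log2 scale was 0.026 (standard error 0.21, 95% confidence interval -0.44 to 0.50), the widest interval of the family, and -0.19 without MUT replicate 3. That library also had the highest sum of the 6 Leydig cell genes, 67.3 CPM against 12.9 to 21.1 CPM in the other five, and 731 counts of the overlapping gene *Ggn* against 294 and 322 in the other two MUT mice. The WT mice had 486, 524 and 738 counts of *Ggn*, the last in a mouse with 4.69 CPM of *Spred3*. Their part in the *Spred3* value was not tested.

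**Figure D2:**
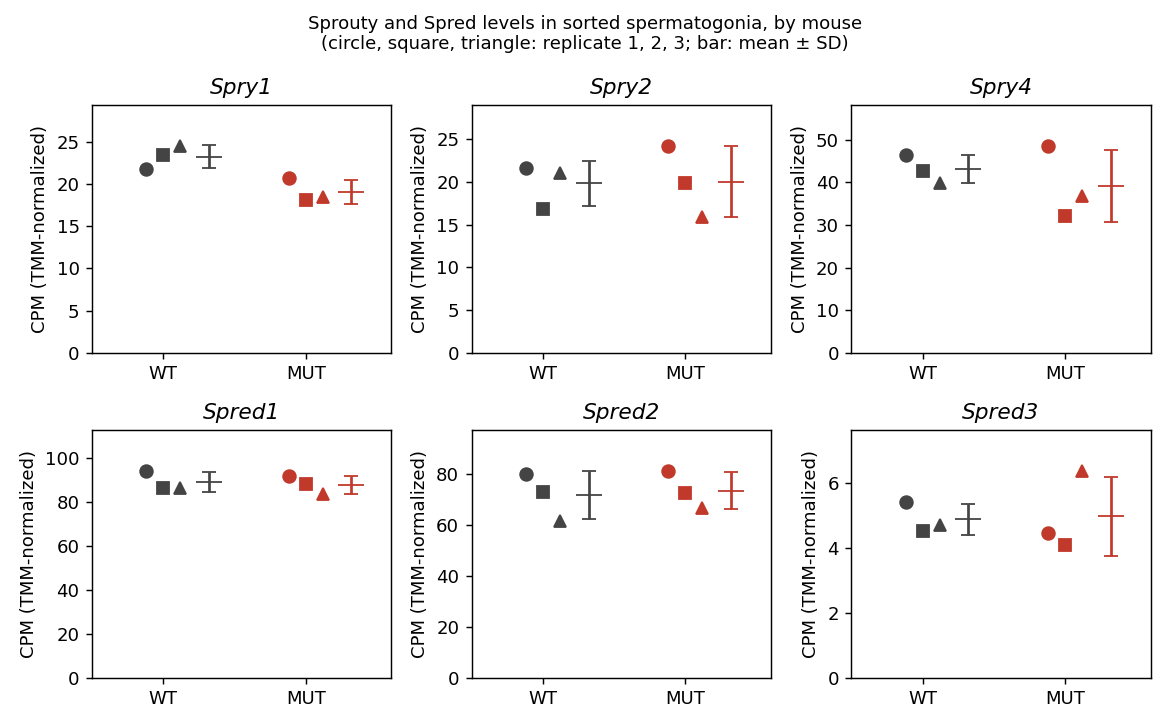
TMM-normalized CPM of each member in 3 WT (grey) and 3 MUT (red) mice, with the replicate number as the symbol and the mean ± SD beside the points, all axes from 0. Only Spry1 has every MUT point below every WT point, and Spred3 has its highest point in MUT replicate 3.

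In the reported edgeR fit, all 6 members had a 95% confidence interval within 1.5-fold of no change in either direction. The outermost bounds were 0.700-fold for *Spry1* and 1.41-fold for *Spred3*. Whether this held in the alternative fits or without 1 mouse was not examined. The summed level of the 3 Sprouty genes was 28.0, 25.5 and 27.2 CPM per kb for WT mice and 29.3, 22.8 and 22.0 for MUT mice. The summed level of the 3 Spred genes was 32.1, 29.3 and 26.8 CPM per kb in WT and 31.9, 29.4 and 27.8 in MUT. Both sums overlapped between the genotypes.

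Several members were highest in mice of the same replicate number. In 4 of the 6 members, *Spry2*, *Spry4*, *Spred1* and *Spred2*, replicates 1 of WT and MUT were the 2 highest mice. That held for 10.7% of the 10583 genes with a mean of at least 10 CPM, a class without *Spred3*. The pair of mice was chosen after the levels were seen, and some of the members vary together. The shares are therefore no test of the members against other genes. The summed undifferentiated spermatogonia markers were also highest in those 2 mice, at 3007 CPM in WT replicate 1 and 3045 CPM in MUT replicate 1, against 2354 to 2859 CPM in the other four. Their part in the pattern was not tested. *Spry1* did not follow it, with MUT replicate 1 at -0.023 and WT replicate 1 at 0.051 from the gene's mean on the log2 scale.

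Across the 6 mice the most alike pairs were *Spred1* with *Spred2* (Pearson's r = 0.82, Spearman's rho = 0.83) and *Spry2* with *Spred1* (r = 0.79, rho = 0.77). The other 13 pairs had r between -0.46 and 0.63. Without the 2 mice farthest from the median of the first gene, r was 0.42 for *Spred1* with *Spred2* and 0.56 for *Spry2* with *Spred1*. These values describe 6 points that share libraries.

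**Figure D3:**
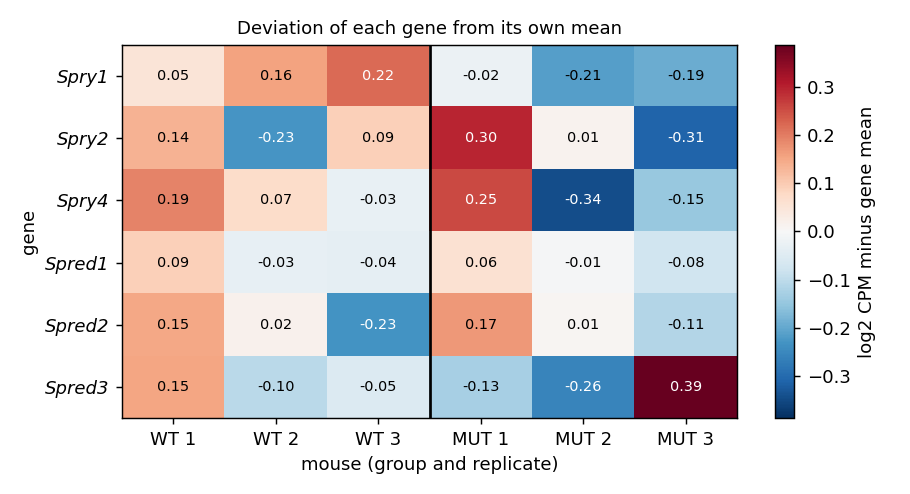
Log2 CPM of each member minus its mean over the 6 mice, with mice in columns (WT left of the line, MUT right) and the value in each cell. WT 1 and MUT 1 are red for Spry2, Spry4, Spred1 and Spred2, whereas Spry1 is above its mean in all WT and below it in all MUT mice.

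The other genes of the pathway were taken from 5 lists. Their 71 genes were all tested, and 0 passed the FDR of 0.1 in edgeR, with 4 at an unadjusted p under 0.05 (2.78% of all tested genes reached it). DESeq2 called 0 as well, and so did the blocked edgeR fit. The log2 fold changes were positive in 40 and negative in 31, with a median of 0.018, where the median of all tested genes was 0.0066. Shares of either direction over all tested genes were not counted, and genes of a list can vary together by library. The directions in the lists are therefore only descriptive.

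Among 15 receptors listed for the pathway, 9 had positive and 6 negative log2 fold changes, with a median of 0.023. *Kit*, the receptor of differentiating spermatogonia, had the highest value (WT 141.6 ± 21.6 CPM, MUT 182 ± 38.7 CPM, SD, n = 3 each, log2 fold change 0.36, standard error 0.16). *Gfra1*, the GDNF co-receptor, had the lowest (134.6 ± 21.3 CPM and 117.0 ± 14.9 CPM, log2 fold change -0.20, standard error 0.13). Among 22 adaptors, Ras proteins and kinases of the cascade, 18 were positive and 4 negative, with a median of 0.039. Their values lay between -0.057 for *Map2k1*, which encodes the kinase MEK1, and 0.16 for *Ksr1*, a scaffold of the cascade.

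Among 11 genes whose proteins bind or modify Sprouty or Spred, 8 were positive and 3 negative, with a median of 0.040. They ran from -0.13 for *Cav1*, the membrane protein caveolin-1, to 0.12 for *Ppp2ca*, a phosphatase subunit. *Nf1*, which encodes the Spred partner neurofibromin and is named here after its values were seen, was at 270.8 ± 47.7 CPM for WT and 279.5 ± 9.58 CPM for MUT (SD, n = 3 each), a log2 fold change of 0.046 (standard error 0.12).

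Among 9 other feedback inhibitors, 3 were positive and 6 negative, with a median of -0.065. *Dusp6*, an ERK phosphatase that ERK signalling itself induces, had the lowest value. It was at 136.5, 127.2 and 128.1 CPM for WT mice and 127.3, 99.2 and 103.5 CPM for MUT mice. As with *Spry1*, MUT replicate 1 was near the WT mice and the other two MUT mice were below them. In edgeR it had a log2 fold change of -0.25 (standard error 0.098, unadjusted p = 0.0340 and adjusted p = 0.998 from edgeR). *Lrig1*, which encodes an inhibitor of ErbB receptors, had the highest value at 0.064 (standard error 0.091).

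Among 16 transcriptional targets of ERK signalling, 4 were positive and 12 negative, with a median of -0.14 and no test of the set. They ran from -0.32 for *Ier3*, an early response gene (standard error 0.14), to 0.15 for *Ccnd1*, which encodes cyclin D1 (standard error 0.10). The 4 pathway genes with an unadjusted p under 0.05 were *Kit*, *Dusp6*, *Erbb2* (log2 fold change 0.22) and *Egr2* (-0.30), and the last 2 are named here after their values were seen. All had an adjusted p of 0.998 from edgeR.

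**Figure D4:**
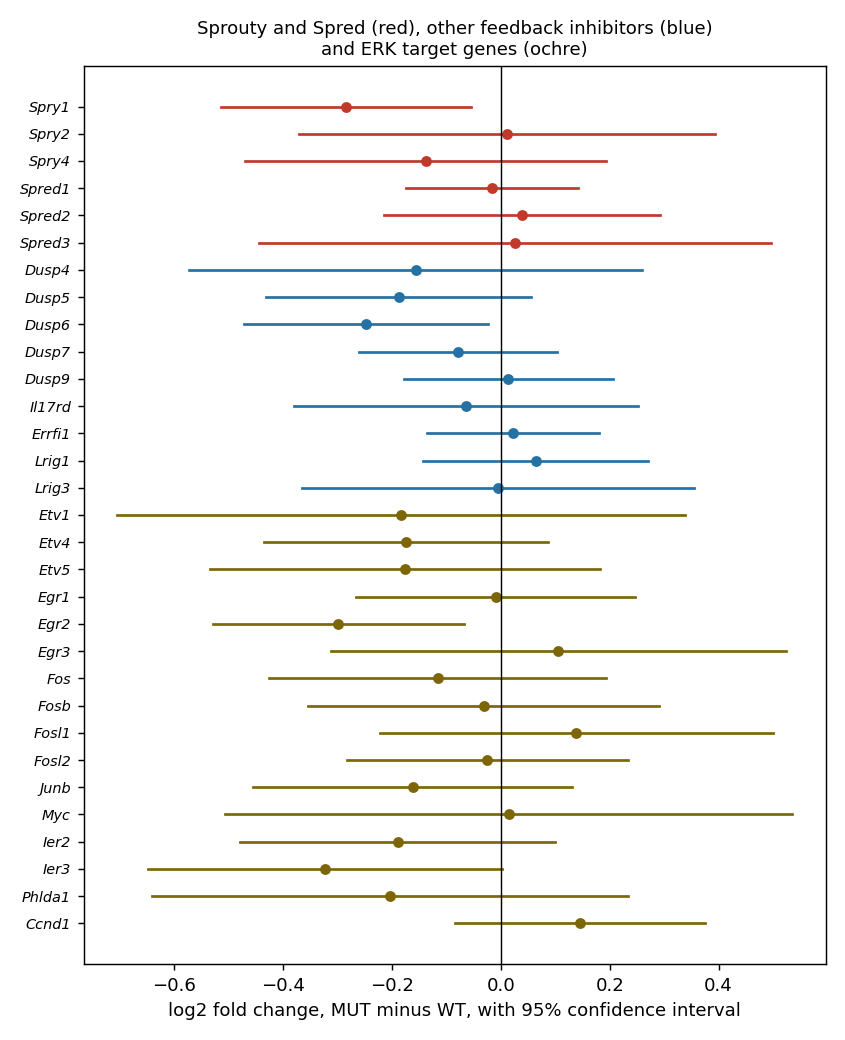
Log2 fold change of MUT minus WT with its 95% confidence interval from edgeR for the 6 members (red), 9 other feedback inhibitors (blue) and 16 ERK target genes (ochre). Most intervals cross 0, and those of Spry1, Dusp6 and Egr2 lie below it, at adjusted p-values of 0.998.

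For each member the 2 genes most like it in log2 CPM over the 6 mice were sought among 10583 genes with a mean of at least 10 CPM. They were *Tmem18* and *Msantd4* for *Spry1*, *Zfp24* and *Sec63* for *Spry2*, *Acad8* and *G6pdx* for *Spry4*, *Irf1* and *Brip1* for *Spred1*, *Kif1c* and *Slc39a6* for *Spred2*, and *Eng* and *Tgds* for *Spred3*. Pearson's r was between 0.979 and 0.996 and Spearman's rho between 0.94 and 1 for all 12 pairs. With 6 mice and this many genes, high values are common, and between 32 genes (*Spred3*) and 403 genes (*Spred2*) had r above 0.9 with a member. *Eng*, which encodes endoglin, a protein of blood vessels, was highest in MUT replicate 3 at 16.8 CPM, as *Spred3* was. The sum of the 6 endothelial genes was instead highest in WT replicate 1 at 59.3 CPM, with 54.7 CPM in MUT replicate 3. The part of such cells in the *Spred3* value was not tested.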

How the data were processed

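RNA-seq libraries of sorted spermatogonia from 3 WT and 3 MUT mice were compared. The authors deposited raw fragment counts per gene name, made with featureCounts 1.6.2 on GENCODE vM17 (GRCm38.p6) with tdTomato added. Counting disregarded strand and left out multi-mapping and ambiguous fragments. The submitters' processing notes name STAR and FastQC without versions.

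Counts were tested in R 4.3.3 with edgeR 4.0.16 (TMM, filterByExpr, quasi-likelihood test, genotype as the only term) over 19656 genes, with Benjamini-Hochberg adjustment and an FDR of 0.1. Standard errors came from the fold change and its F statistic. DESeq2 1.42.0 and limma 3.58.1 (voom) were alternatives. Log2 CPM used a prior count of 2 in all correlations. The members' deviations from their own means used no prior count. Levels per kb used all annotated exon bases. Scripts were tested on simulated counts. Floors of 3 counts cover counting error only.

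WT and MUT samples share replicate numbers. Across 10583 genes the same-numbered samples' deviations from their group means had correlations of 0.30, 0.16 and 0.40. The other 6 pairs had -0.42 to 0.33, the highest being WT replicate 2 with MUT replicate 1, above that of WT replicate 2 with its own number. These values do not settle whether the numbers pair the mice, so fits with a block on the number were run only as alternatives. The reported model has no block, as the study names no covariate. Replicates of a group were different libraries (chi-square per degree of freedom 4.26 to 24.5). Promoter windows are from RefSeq and coding sequences from GENCODE vM21, both on this build.

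Genes named are the members, *Hras*, the extremes of each pathway list, any listed gene past the FDR, and the 2 genes most like each member. *Nf1*, *Ms4a1*, *Ggn*, *RP23-382L1.6*, *Erbb2* and *Egr2* fall outside this rule and were chosen after their values were seen. The members and lists were chosen with earlier results of these data known.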

Additional observations from a re-analysis of the deposited data

How the results depend on the processing

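No member passed the FDR of 0.1 under any of the 7 alternative fits, the stricter FDR of 0.05 or the 6 fits that each left out 1 mouse. *Spry1* kept its direction in all 13 fits, between -0.30 and -0.28 in the 7 alternatives (unadjusted p from 0.0165 to 0.0663, the last in DESeq2 with the block) and between -0.35 and -0.25 without 1 mouse (unadjusted p from 0.0153 to 0.0578). *Spry4* also kept its direction, from -0.16 to -0.13 and from -0.33 to -0.028. The directions of the others were not stable. *Spry2* was at -0.0021 in limma voom and -0.0027 with genes kept at 10 or more counts in all 6 mice, and from -0.16 to 0.15 without 1 mouse. Without 1 mouse *Spred1* ran from -0.057 to 0.019, *Spred2* from -0.060 to 0.12 and *Spred3* from -0.19 to 0.14. The settings meant for *Spry3* were not run.

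Over all genes, 2 were called in edgeR (547 at an unadjusted p under 0.05). The count was 9 in DESeq2, 4 in limma voom, 5 without a filter on low counts, 0 with genes kept at 10 or more counts in all 6 mice (479 at an unadjusted p under 0.05) and 1 under an FDR limit of 0.05. A block on the replicate number gave 13 in edgeR and 55 in DESeq2, and it changed no call among the members, nor in edgeR among the pathway lists. Leaving out 1 mouse gave 0 to 6 genes, with 5 without WT replicate 3, 1 without MUT replicate 1, 0 without MUT replicate 2 (292 at an unadjusted p under 0.05) and 6 without MUT replicate 3. The cause was not tested.

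By CPM without division by exon length the order was *Spred1* (position 1), *Spred2* (2), *Spry4* (3), *Spry1* (4), *Spry2* (5) and *Spred3* (6), since exon lengths differ. DESeq2 size factors, and the length of the coding transcript (chosen after seeing the data), left the order as reported. Over exon bases free of other genes (also chosen after seeing the data) *Spry1* moved to position 3, *Spry2* to 4 and *Spry4* to 5. With 94 to 149 counts, *Spred3* is the member whose precision depth limits most.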
